A study of Bubalus bubalis with 6 samples.

Results

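Cell-free saliva of Murrah buffaloes (Bubalus bubalis) was examined for miR-21-5p, miR-26b, miR-148a, miR-148b and miR-191, miRNAs that recur in the body fluids of mammals and are often considered as reference miRNAs. They were taken by name, as rows called miR-21, miR-26a, miR-26b, miR-148a, miR-148b or miR-191 with or without an arm suffix. The names were chosen with earlier results of these data known. The rule gave 5 of the 273 miRNAs in the deposited table, and miR-26a was not analysed here. Saliva had been taken from 3 healthy wild-type animals, each at estrus, the phase of sexual receptivity, and at diestrus, the luteal phase. This gave 3 small RNA libraries per phase, in which the replicate number is the animal, and no group carries a treatment label. No age is given in the labels.

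A miRNA is cut from a hairpin precursor and loaded into an Argonaute protein, where its seed, the bases near its 5′ end, pairs with target mRNAs and lowers their output. Part of a cell's miRNA leaves it in vesicles or bound to protein and persists in saliva, milk and plasma. A miRNA serves as a reference in such a fluid only if its level is similar in all samples and high enough to be counted with precision. miR-21 is induced by growth and inflammatory signals and represses the tumour suppressor PDCD4. The miR-26 family represses EZH2, a histone methyltransferase. miR-148a and miR-148b share a seed with miR-152 and repress DNMT1, and miR-148a is abundant in milk. miR-191 is made from the same primary transcript as miR-425.

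The libraries held between 3015 and 27036 reads, recovered as whole multiples of the smallest value in each column. Each estrus library was deeper than each diestrus library, so depth and phase cannot be told apart, and no sequencing batch is labelled. Estrus replicate 3 was the deepest library, and its sample description alone carries the word "Repl", whose meaning the labels do not give. In saliva a change in the number of source cells and a change in the RNA that each releases cannot be told apart.

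miR-21-5p, miR-26b, miR-148a and miR-191 each took their largest share of reads in the same estrus library, replicate 3, and had at most 14 reads in any other. By rank within a library, however, miR-191 stood at 15 both there and in diestrus replicate 1. With miR-148b included, the 5 miRNAs together held 6.21% of the reads in estrus replicate 3 (95% Wilson interval 5.93 to 6.51). In the other libraries these 5 held 0.201% and 0.207% at estrus (replicates 1 and 2) and 0.697%, 0.216% and 0.356% at diestrus (replicates 1 to 3). The phases therefore overlapped, and the high estrus value belonged to 1 animal. Intervals cover counting error only and leave out differences between animals and libraries. They also take each read as an independent molecule, which copies made in PCR are not.

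**Figure D1:**
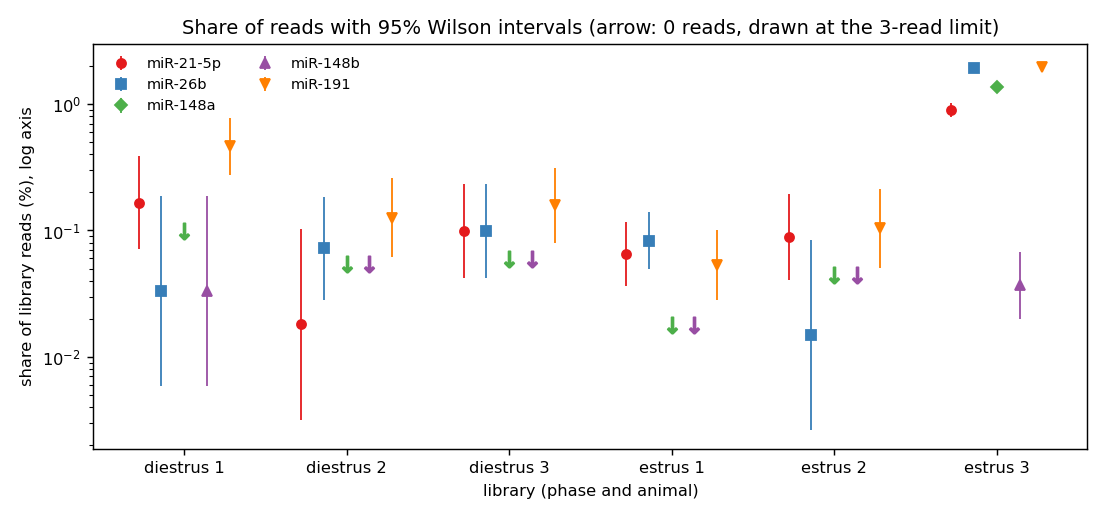
Share of library reads in percent (log axis) for each of the 5 miRNAs in each library, with 95% Wilson intervals; arrows stand for 0 reads and are drawn at the 3-read limit. In estrus replicate 3 miR-191, miR-26b, miR-148a and miR-21-5p lie between 0.902% and 1.97%, and in the other 5 libraries no point lies above 0.464%.

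miR-21-5p (bta-miR-21-5p) was counted 11, 6 and 244 times in estrus replicates 1, 2 and 3 and 5, 1 and 5 times in diestrus replicates 1, 2 and 3. Its normalized counts, which are reads divided by a size factor per library, were 4.34, 10.8 and 43.9 at estrus and 14.2, 1.63 and 8.59 at diestrus. Estrus replicate 3 was the highest library on either scale, and the normalized counts of the phases overlapped. The estrus mean was 19.7 ± 21.2 and the diestrus mean 8.16 ± 6.32 (SD, n = 3 each). As log2(value + 1), a scale that compresses changes at low counts, estrus minus diestrus was 0.96 with a standard error of 1.49 and a 95% interval of -1.98 to 3.90 (limma, adjusted p = 0.728). This lay within the replicate error, and an exact two-sided permutation test of the same values gave p = 0.5, where 3 libraries against 3 cannot give less than 0.1. The difference was -1.51 in animal 1 and 2.17 and 2.23 in animals 2 and 3, and the mean fitted without estrus replicate 3 was 0.13.

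miR-26b (bta-miR-26b) was counted 14, 1 and 524 times at estrus and 1, 4 and 5 times at diestrus, in the order of the animals. These reads corresponded to normalized counts of 5.52, 1.81 and 94.3 at estrus and 2.85, 6.52 and 8.59 at diestrus. The lowest and the highest value were both at estrus, so the estrus libraries enclosed the diestrus ones. The phase means were 33.9 ± 52.4 and 5.99 ± 2.91 (SD, n = 3 each), and the log2 difference of 0.88 had a standard error of 1.51 and a 95% interval of -2.10 to 3.87 (limma, adjusted p = 0.728). The exact permutation test gave p = 0.9. Without estrus replicate 3 the difference was -0.61, so the direction for miR-26b rested on that library.

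miR-148a (bta-miR-148a) was counted 370 times in estrus replicate 3, a normalized count of 66.6, and 0 times in the other 5 libraries. A count of 0 allowed a share of up to 0.0178% in estrus replicate 1, the deepest of these 5, and up to 0.0995% in diestrus replicate 1, the shallowest. In estrus replicate 3 the share was 1.37% (95% Wilson interval 1.24 to 1.51), and at the depth of the smallest library 41.3 reads would be expected from it. miR-148a passed the filter for testing, a mean normalized count of at least 5, only through this library. Its fitted log2 difference of 2.03 had a standard error of 2.07 and a 95% interval of -2.05 to 6.11 (limma, adjusted p = 0.636), the exact permutation test gave p = 1, and without estrus replicate 3 the difference was 0.

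miR-148b (bta-miR-148b), which has the same seed as miR-148a, had 10 reads in estrus replicate 3, 1 read in diestrus replicate 1 and 0 reads in the other 4 libraries. Its mean normalized count of 0.775 was under the filter, so it was not tested. In estrus replicate 3 the ratio of miR-148a to miR-148b reads was 37.0 (exact 95% interval 19.9 to 77.8), and in no other library were both above the floor of 3 reads. miR-152, the other miRNA with this seed, had 17 reads in estrus replicate 3 and 0 reads elsewhere. The share of miR-148b was 0.0370% in estrus replicate 3 (95% Wilson interval 0.0201 to 0.0681) and 0.0332% in diestrus replicate 1 (0.00586 to 0.188), the latter from 1 read, and its normalized counts there were 1.80 and 2.85. Since miR-148a and miR-148b are near-identical in sequence, the counting may not fully separate them.

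miR-191 (bta-miR-191) was counted 9, 7 and 532 times at estrus and 14, 7 and 8 times at diestrus. The normalized counts were 3.55, 12.7 and 95.7 at estrus and 39.9, 11.4 and 13.7 at diestrus. Both the lowest and the highest library were again estrus libraries. The log2 difference was -0.11 with a standard error of 1.45 and a 95% interval of -2.96 to 2.75 (limma, adjusted p = 0.954), and the exact permutation test gave p = 0.9. By animal it was -3.17, 0.14 and 2.71, so the mean near 0 averaged animals that differed in opposite directions. Without estrus replicate 3 the fitted difference was -1.31. An interval this wide does not show that the level was equal in the 2 phases.

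**Figure D2:**
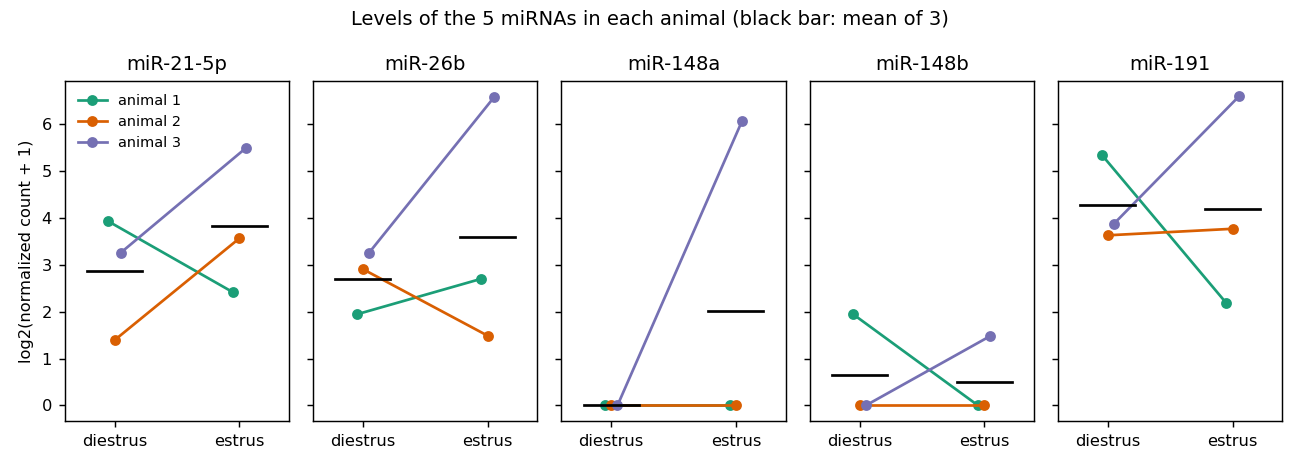
Levels of the 5 miRNAs as log2(normalized count + 1) at diestrus and estrus, with a line for each animal and a black bar for the mean of 3 animals. Animal 3 is higher at estrus in each panel, miR-191 in animal 1 is lower at estrus (a difference of -3.17), and miR-148a is at 0 in 5 of 6 libraries.

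Shares of reads within each animal do not use the deposited scaling, but a share depends on the other miRNAs counted in its library. In animal 3 the share at estrus was 12.4 times that at diestrus for miR-191 (exact 95% interval 6.26 to 28.9), 9.12 times for miR-21-5p (3.86 to 28.4) and 19.6 times for miR-26b (8.34 to 60.6). For miR-148a it was at least 23.1-fold higher, set against the floor of 3 reads in the diestrus library. In animal 1 the share of miR-191 was lower at estrus, with a ratio of 0.115 (0.0439 to 0.285). The intervals of the other ratios that could be formed in animals 1 and 2 included 1. These intervals compare pairs of libraries, not the phases.

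No member passed the test of phase fitted over all miRNAs. Of the 4 members tested, 0 had an adjusted p-value below 0.05, against 0% of all 58 miRNAs tested (limma, Benjamini-Hochberg over 58). At an unadjusted p-value below 0.05 the count was also 0 of 4, against a background of 13.8%. For 0 of 4 the normalized counts of the phases did not overlap, against 6.9% of the 58, and 0 of 4 changed in the same direction in all 3 animals, against 27.6%. miR-148a, with 0 reads outside estrus replicate 3, could meet neither of these last rules, so its outcome there was fixed. With at most 4 members, counts of 0 lie near these backgrounds. The median difference of the 4 was 0.92, of which miR-148a entered only through 1 library, and that of all 58 was 0.90.

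**Figure D3:**
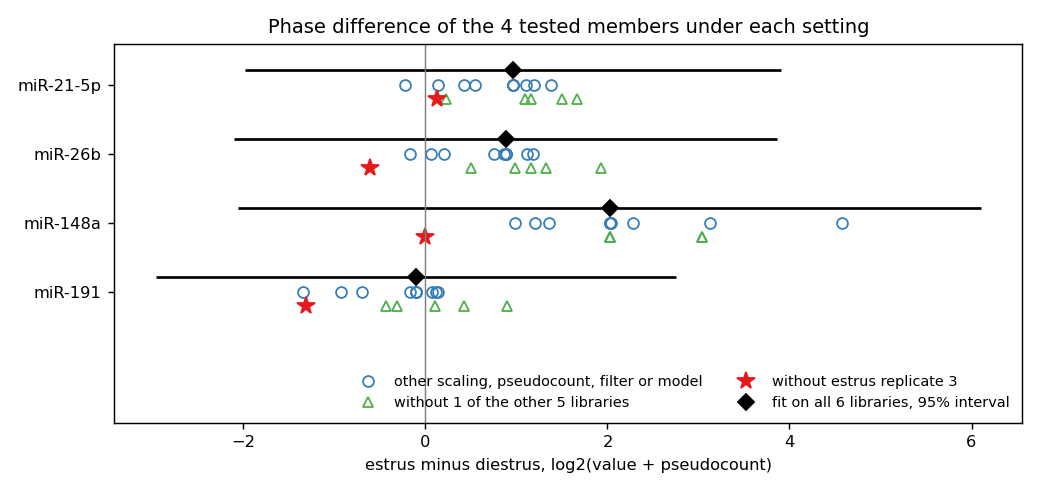
Estrus minus diestrus on the log2 scale for the 4 tested members, with the fit on all libraries and its 95% interval (black), the fits under another scaling, pseudocount, filter or model (blue), and the fits without 1 library (green, or red without estrus replicate 3). All 4 black intervals include 0, and without estrus replicate 3 miR-148a lies at 0 and miR-191 at -1.31.

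Estrus replicate 3 was the highest library for all 4 tested members, which for miR-148a was fixed by the filter it passed. It was also the highest for 25 of the 58 tested miRNAs (43.1%), and each of the other 5 libraries was the highest for 6 or 7. Of these 25, 12 passed the filter only through estrus replicate 3, miR-148a among them, and 13 passed it without that library. Beside this, the summed normalized count of epithelial markers, of which 6 of 7 were listed (miR-200a, miR-200b, miR-200c, miR-141, miR-205 and miR-375), was 71.7, 19.9 and 449.8 at estrus and 22.8 to 30.9 at diestrus, and none of the 6 was at 0 in estrus replicate 3. The leukocyte markers, of which 4 of 5 were listed, summed to 38.2 to 130.2 at estrus and 159.6 to 316.3 at diestrus. As shares of reads the leukocyte sums overlapped between the phases, with 2.27% in estrus replicate 3 and 1.77% in diestrus replicate 2. Of the erythrocyte markers 1 of 3 was listed, miR-486, at no more than 1.72 in any library. The part of these cell types, and of the library itself, in the levels of miR-21-5p, miR-26b, miR-148a and miR-191 was not tested.

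The order of the members was read in estrus replicate 3, where each had at least 10 reads. There miR-191 and miR-26b differed by less than counting error, with a ratio of 1.02 (exact 95% interval 0.898 to 1.15). miR-148a stood below both, at 0.706 times miR-26b (0.616 to 0.808), and miR-21-5p lower still, at 0.466 times miR-26b (0.398 to 0.543). miR-191 exceeded miR-21-5p by 2.18 times in this library (1.87 to 2.55). In the other libraries where both had more than 3 reads the ratio of miR-191 to miR-21-5p was 0.818 (0.300 to 2.17) and 1.17 (0.336 to 4.20) at estrus and 2.80 (0.953 to 9.93) and 1.60 (0.462 to 6.22) at diestrus. Of these 4 intervals all include 1, so the order of the 2 miRNAs was not detectable there. In diestrus replicate 1 miR-191, with 14 reads, stood above miR-26b, with 1 read, and their Wilson intervals did not overlap. Reads were compared between miRNAs of nearly equal length, and differences in how well each one is ligated were not measured.

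Outside estrus replicate 3 the shares of miR-21-5p and miR-26b differed by no more than their counting intervals allowed. miR-21-5p ranged from 0.0180% in diestrus replicate 2 (95% Wilson interval 0.00318 to 0.102) to 0.166% in diestrus replicate 1 (0.0709 to 0.388). miR-26b ranged from 0.0148% in estrus replicate 2 (0.00262 to 0.0839) to 0.0989% in diestrus replicate 3 (0.0423 to 0.231). miR-191 did differ beyond counting error. Its share of 0.464% in diestrus replicate 1 (0.277 to 0.778) lay above the intervals of estrus replicate 1 at 0.0533% (0.0281 to 0.101), estrus replicate 2 at 0.104% (0.0503 to 0.214) and diestrus replicate 2 at 0.126% (0.0611 to 0.260).

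Stability was described for the 58 tested miRNAs by the SD of log2(value + 1) over the 6 libraries, where rank 1 is the smallest SD. miR-21-5p was the steadiest member, with an SD of 1.39 and rank 15. miR-191 followed with 1.53 and rank 20, and miR-26b with 1.80 and rank 27. The SD of miR-148a, 2.48 at rank 50, is set by its 1 library with reads, through which alone it passed the filter, and it is not compared with the others. The median SD of the 58 was 1.84, above the SD of miR-21-5p, miR-191 and miR-26b. Of the 58, however, 12 passed the filter only through estrus replicate 3, miR-148a among them, and the filter favours a large SD in these. The median and the ranks of the other members therefore depend in part on the filter. With no filter the median over all 273 miRNAs, many of them near 0, was 0.90, and these 3 members ranked 214, 226 and 238, on the less steady side. Over 8 combinations of scaling and pseudocount the rank among the 58 ran from 10 to 18 for miR-21-5p, 11 to 34 for miR-191 and 11 to 36 for miR-26b.

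For miR-191 the phase difference was small and the spread was not. Its absolute phase difference of 0.11 was the second smallest of the 58, while its pooled SD within the phases, 1.71, ranked 26. The corresponding SD within the phases was 1.44 for miR-21-5p and 1.94 for miR-26b. Relative to the mean, the coefficient of variation of the normalized count was 110.3% for miR-21-5p, 117.7% for miR-191 and 183.2% for miR-26b.

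These ranks depended on single libraries. Without estrus replicate 1 miR-191 was steadier (SD 1.29, rank 14) than miR-21-5p (SD 1.47, rank 19). Without estrus replicate 3 the order of the members turned as well. Over the other 5 libraries the SD was 0.73 for miR-26b (rank 12), 1.02 for miR-21-5p (rank 22) and 1.12 for miR-191 (rank 24). These ranks were still taken among 58, although only 46 pass the filter without estrus replicate 3. miR-26b then passed it narrowly, with a mean normalized count of 5.06. miR-148a then had an SD of 0 and rank 1, because it had no read in these libraries. For the others too the counts were low, and the lowest library held 7 reads of miR-191 and 1 read each of miR-21-5p and miR-26b.

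**Figure D4:**
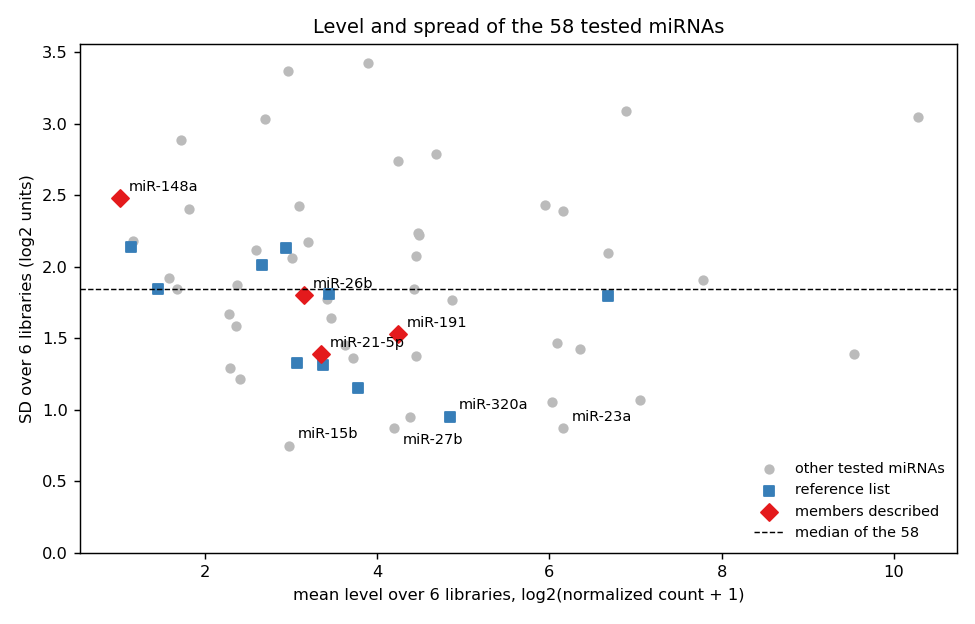
Mean level over the 6 libraries against the SD over the 6 libraries, both on the log2(normalized count + 1) scale, for the 58 tested miRNAs, with the 4 tested members as red diamonds and the 10 tested miRNAs of the reference list as blue squares. miR-21-5p, miR-191 and miR-26b lie below the dashed median of 1.84, miR-148a, with reads in 1 library only, lies above it, and miR-15b, miR-23a and miR-27b lie lowest. The median includes 12 miRNAs that passed the filter only through estrus replicate 3, which favours a large SD.

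Log ratios between members within a library do not depend on how the library was scaled, apart from the pseudocount. The SD of the log2 ratio over 6 libraries was smallest for miR-191 with miR-21-5p, at 0.89, below the SD of either alone. It was 1.48 for miR-191 with miR-26b and 1.52 for miR-21-5p with miR-26b. For miR-148a no such ratio is given, since it had 0 reads in 5 libraries. Against all other tested miRNAs the mean SD of the log ratio was 2.21 for miR-21-5p (rank 13), 2.26 for miR-26b (rank 18) and 2.28 for miR-191 (rank 21).

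A list of other miRNAs used as references in body fluids was set beside the members. Of its 16 names all were in the table and 10 were tested, and 0 of 10 had an adjusted or an unadjusted p-value below 0.05 in either direction (limma), against the backgrounds of 0% and 13.8% given above. Of these 10, miR-16a, miR-93, miR-423-3p and miR-425-5p passed the filter only through estrus replicate 3, as miR-148a did, and their SDs are not compared. The SD of the other 6 ran from 0.95 for miR-320a (rank 5) to 1.81 for miR-423-5p (rank 28). miR-320a had between 16 and 152 reads in every library, and let-7a-5p, with 10 to 2679 reads, was the other tested miRNA of the list with at least 10 reads in each. No member reached 10 reads in every library. The 3 miRNAs with the smallest SD of all 58 were miR-15b (0.75), miR-23a (0.87) and miR-27b (0.87), of which miR-23a had at least 21 reads in each library.

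The miRNAs whose levels were most like those of the members over the 6 libraries were named by Pearson correlation of log2(value + 1), as a description of 6 points that share depth and scaling. miR-16a (r = 0.99) and miR-425-5p (r = 0.96) were closest to miR-148a, and both had most of their reads, 579 and 218, in estrus replicate 3. miR-93 (r = 0.88) and miR-205 (r = 0.88) were closest to miR-191. miR-125b (r = 0.94) and miR-125a (r = 0.93) were closest to miR-26b, and miR-16a (r = 0.84) and miR-191 (r = 0.82) to miR-21-5p. Without estrus replicate 3 the correlation was 0.91 for miR-26b with miR-125a and 0.56 with miR-125b. It was then 0.84 for miR-191 with miR-93, 0.73 with miR-205 and 0.58 with miR-21-5p, and 0.87 for miR-21-5p with miR-16a. For miR-148a it could not be computed because its level was 0 throughout. Outside estrus replicate 3 miR-93 and miR-16a each had 1 to 5 reads per library, and both passed the filter only through that library. miR-26b and miR-125a each had 1 read in estrus replicate 2 and in diestrus replicate 1. At 1 read the level is set by the library's scaling, so the values of 0.84, 0.87 and 0.91 rest on few reads.

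miR-425-5p, the transcript partner of miR-191, could be compared with it in 1 library. It had 218 reads in estrus replicate 3, where miR-191 exceeded it by 2.44 times (exact 95% interval 2.08 to 2.87). In the other libraries it had 1 read in estrus replicate 2 and 0 reads in the remaining 4, in which miR-191 had 7 to 14. miR-191b, a separately named row that the name rule did not take, had 3 reads in all.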

How the data were processed

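The authors deposited 1 table of normalized counts in which the signal of each miRNA is its count divided by a size factor for that library. All values were whole multiples of the smallest one in their column, within a tolerance of 0.01 reads, which gave reads per library. Per the labels' protocols, libraries were made with a QIAseq miRNA kit that adds unique molecular indices. The submitters' processing notes name Bowtie, FastQC, UMI-tools, cutadapt, SAMtools, featureCounts and DESeq2, without versions or roles. The miRNA reference and build are not given in the sources used here. Genomic positions and sequences of the miRNAs were not analysed here.

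Phases were compared with limma 3.58.1 (R 4.3.3, mean-variance trend) on log2(value + 1) for miRNAs with a mean of at least 5. The pooled test used 232 degrees of freedom. Wilson and exact intervals, permutation tests and ranks were computed with Python 3.11.15 and scipy 1.17.1. The fit was also run on simulated data, whose outcome is not reported here and is not used. All members were named, with the 2 miRNAs most correlated with each tested member and the 3 of smallest SD. Members and lists were chosen with earlier results of these data known. Replicate numbers are animal numbers, which is the source of the pairing. After the phase means were removed, the correlation between the 2 samples of an animal was -0.0046, 0.37 and 0.30. The comparison does not use the pairing. Alternatives were a replicate block, other pseudocounts, filters and scalings, no trend, and leaving out each sample. Animals are separate, but each gave 1 sample per phase. In the main fit the limma p-values and intervals rest on a spread between samples pooled over the tested miRNAs along the trend. They do not rest on the spread of 1 miRNA alone. The 232 degrees of freedom count the miRNAs as independent, although all come from the same samples. The permutation p-values use the values of 1 miRNA at a time.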

Additional observations from a re-analysis of the deposited data

How the results depend on the processing

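The count of members with an adjusted p-value below 0.05 was 0 in the fit on all samples and in the 16 alternatives that could be run for it, and so was the number passing 0.05 without adjustment. Adjusted p-values of the members ran from 0.467 to 1 (limma). With the animal as a replicate block both counts stayed at 0, so the pairing changed no call of a member. Over all 58 miRNAs 6 passed the unadjusted threshold with the block and 8 without it, and 0 passed the adjusted one either way. With a mean of at least 50 no member was left.

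The direction of miR-191, -0.11, reversed to 0.078 when columns were scaled to CPM, 0.14 for shares on the mean column total and 0.12 with a pseudocount of 10. It ranged from -1.31 to 0.89 over the fits without 1 library, the lowest without estrus replicate 3. Of the tested miRNAs miR-1246 had the highest mean log2 level over all libraries, but it was not compared within each phase. With column totals taken without miR-1246, miR-21-5p reversed to -0.23 and miR-26b to -0.16, and miR-191 was -1.34. After median centring miR-21-5p was 0.14, miR-26b 0.062 and miR-191 -0.93. miR-26b ranged from -0.61 to 1.93, miR-21-5p from 0.13 to 1.67 and miR-148a from 0 to 3.04 without 1 library. The lowest value was without estrus replicate 3 in each case. The cause of these shifts was not tested.

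The median SD of the 4 tested members, 1.67, was 1.12 with a pseudocount of 10, 0.87 to 1.86 without 1 library (0.87 without estrus replicate 3) and 2.27 as SD of log ratios to the other tested miRNAs, a measure chosen after the data were seen. This median includes miR-148a, whose SD of 0 without estrus replicate 3 reflects 5 libraries without a read, so it does not measure stability there. Over all miRNAs, 0 passed the adjusted threshold, 1 did for shares on the mean column total, for totals without miR-1246 and for quantile normalization, and 0 to 6 did without 1 library, 6 without estrus replicate 2. At the unadjusted threshold 8 passed, 2 with a pseudocount of 10 or a mean of at least 50, 16 with no filter, 5 for totals without miR-1246, median centring or quantile normalization, and 0 to 11 without 1 library (0 without estrus replicate 1). edgeR, with and without a replicate block, and DESeq2 on recovered reads were not run, since 3 columns held fewer than 100 low values, the number required for accepting recovered reads in a count test.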
